A study of Homo sapiens with 2 samples.

Results

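The m6A RNA methylation genes described here are 10 genes chosen by name from 58735 in each count table: METTL3, METTL14, WTAP, VIRMA, FTO, ALKBH5, YTHDF1, YTHDF2, YTHDF3 and YTHDC1. Each symbol matched 1 Ensembl gene in GENCODE release 44, and all 10 had a row in both tables. The rule that picks them uses their names and no measured value, although it was written with earlier results of these data known. The tables come from 2 libraries of polyadenylated RNA from MCF10a-Snail-ER, a derivative of the human mammary epithelial line MCF10a that stably carries the epithelial repressor Snail fused to the estrogen receptor. Both libraries shared a single condition, a 1-day course of 100 nM tamoxifen given to induce epithelial-to-mesenchymal transition, and the series calls the RNA matched. The first library was read as native RNA on an Oxford Nanopore MinION (direct RNA kit SQK RNA01), and the second was made with a TruSeq stranded mRNA kit for Illumina sequencing. With no untreated library and no replicate, the data give the level of each gene in these cells and how the 2 platforms compare. They give no effect of tamoxifen, every interval covers counting error in these libraries only, and each level is an average over all cells in the culture.

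N6-methyladenosine (m6A) is the most common internal modification of messenger RNA. A writer complex places it: METTL3 carries the catalytic site, METTL14 holds the RNA, WTAP brings the pair to nuclear speckles, and VIRMA is the large scaffold that steers methylation towards the end of the message. The demethylases FTO and ALKBH5 can remove the mark. Readers of the YTH family bind it, YTHDC1 in the nucleus, where it acts on splicing and export, and YTHDF1, YTHDF2 and YTHDF3 in the cytoplasm, where they act on decay and translation. The tables hold gene counts and no calls of the modification itself.

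Depth differed 475.5-fold: 403235 counts by Nanopore against 191741714 by Illumina. Expressed per 1000000 counts of the library (CPM), 1 count was worth 2.48 by Nanopore and 0.00522 by Illumina. The 10 genes took 0.0298% of all Nanopore counts, against 0.0629% by Illumina. All 8 epithelial markers looked for, 6 of them basal, were detected in both libraries, from 4.02 to 12193 by Illumina in TPM (counts divided by transcript length and scaled to a total of 1000000), and VIM, a mesenchymal marker, was at 1315 TPM. FN1, also a mesenchymal marker, was at 48.7 TPM (54.6 Nanopore CPM). SNAI1 was at 782 TPM, a value that may include the construct. ESR1, whose value may as well, was at 35.1 TPM, with 965 CPM by Nanopore and 143 by Illumina. EPCAM and CDH1, the 2 general epithelial markers, were the lowest of the 8 epithelial markers, at 4.02 and 7.79 TPM. Of 8 markers of leukocytes, endothelium and fibroblasts, 7 had no Nanopore count, and CD14 was the exception, with 5 counts and 12.5 TPM. By Illumina, COL1A1 and PECAM1 were at 1.29 and 1.15 TPM (946 and 973 counts, more than the 770 of EPCAM), and the other 5 were at 0.065 TPM or less.

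The catalytic and the RNA-binding subunit of the writer differ at the motif that holds the methyl donor in METTL3, named DPPW, whose counterpart in METTL14, named EPPL, lacks catalytic activity. The coding stretches are shown because they mark which of the 2 messages encodes the enzyme. Both are from the canonical transcripts in GENCODE release 44, 5′ to 3′, with the codons of the motif in capitals. The METTL3 stretch is in exon 6 on the minus strand (hg38, chr14:21500581-21500640) and its capitals are codons 395 to 398. The METTL14 stretch is in exon 7 on the plus strand (chr4:118697228-118697287), with codons 192 to 195 in capitals.
METTL3: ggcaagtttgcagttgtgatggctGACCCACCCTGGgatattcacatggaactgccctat
METTL14: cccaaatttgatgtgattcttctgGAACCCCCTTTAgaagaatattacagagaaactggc

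All 4 core writers were detected on both platforms, with WTAP the most read and METTL14 the least read by Nanopore. METTL3 (ENSG00000165819, chr14:21498133-21511342) had 9 Nanopore counts, 22.3 CPM (exact 95% interval 10.2 to 42.4), and 11103 Illumina counts, 57.9 CPM (56.8 to 59.0). METTL14 (ENSG00000145388, chr4:118685392-118715433) had 2 Nanopore counts, 4.96 CPM (0.601 to 17.9), and 4719 Illumina counts, 24.6 CPM (23.9 to 25.3). At its Illumina share, the Nanopore depth would have given 9.92 METTL14 reads. WTAP (ENSG00000146457, chr6:159725585-159756319) had 29 Nanopore counts, 71.9 CPM (48.2 to 103), and 13865 Illumina counts, 72.3 CPM (71.1 to 73.5). VIRMA (ENSG00000164944, chr8:94487689-94553529) had 11 Nanopore counts, 27.3 CPM (13.6 to 48.8), and 14447 Illumina counts, 75.3 CPM (74.1 to 76.6). WTAP thus had nearly equal shares of the 2 libraries, whereas METTL3, METTL14 and VIRMA had a smaller share of the Nanopore library, with intervals of the platforms that do not overlap.

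Both erasers had a smaller share of the Nanopore than of the Illumina library, by almost the same factor. FTO (ENSG00000140718, chr16:53701692-54158512) had 7 Nanopore counts, 17.4 CPM (6.98 to 35.8), and 8577 Illumina counts, 44.7 CPM (43.8 to 45.7). ALKBH5 (ENSG00000091542, chr17:18183078-18209954) had 12 Nanopore counts, 29.8 CPM (15.4 to 52.0), and 14402 Illumina counts, 75.1 CPM (73.9 to 76.3). Nanopore CPM was 0.388 of Illumina CPM for FTO (exact conditional binomial interval 0.156 to 0.800) and 0.396 for ALKBH5 (0.205 to 0.692). Their annotated transcripts differ widely in length: the canonical FTO transcript has 11573 bases, 86.6% of them 3′ untranslated, and that of ALKBH5 has 3159 bases, 49.3% of them 3′ untranslated.

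Among the cytoplasmic readers, YTHDF2, which recruits the deadenylation machinery to methylated messages, had the highest level in Nanopore CPM and in Illumina TPM. It (ENSG00000198492, chr1:28736621-28769775) had 19 Nanopore counts, 47.1 CPM (28.4 to 73.6), and 18168 Illumina counts, 94.8 CPM (93.4 to 96.1). YTHDF1 (ENSG00000149658, chr20:63195429-63216139), known for promoting translation, had 7 Nanopore counts, 17.4 CPM (6.98 to 35.8), and 10381 Illumina counts, 54.1 CPM (53.1 to 55.2). YTHDF3 (ENSG00000185728, chr8:63168553-63212786), which works with both relatives, had 15 Nanopore counts, 37.2 CPM (20.8 to 61.4), and 9949 Illumina counts, 51.9 CPM (50.9 to 52.9). The intervals of the platforms overlapped for YTHDF3 and not for YTHDF1 or YTHDF2. The nuclear reader YTHDC1 (ENSG00000083896, chr4:68310387-68350090) had 9 Nanopore counts, 22.3 CPM (10.2 to 42.4), and 14958 Illumina counts, 78.0 CPM (76.8 to 79.3). Its Nanopore interval lay wholly below its Illumina interval.

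**Figure D1:**
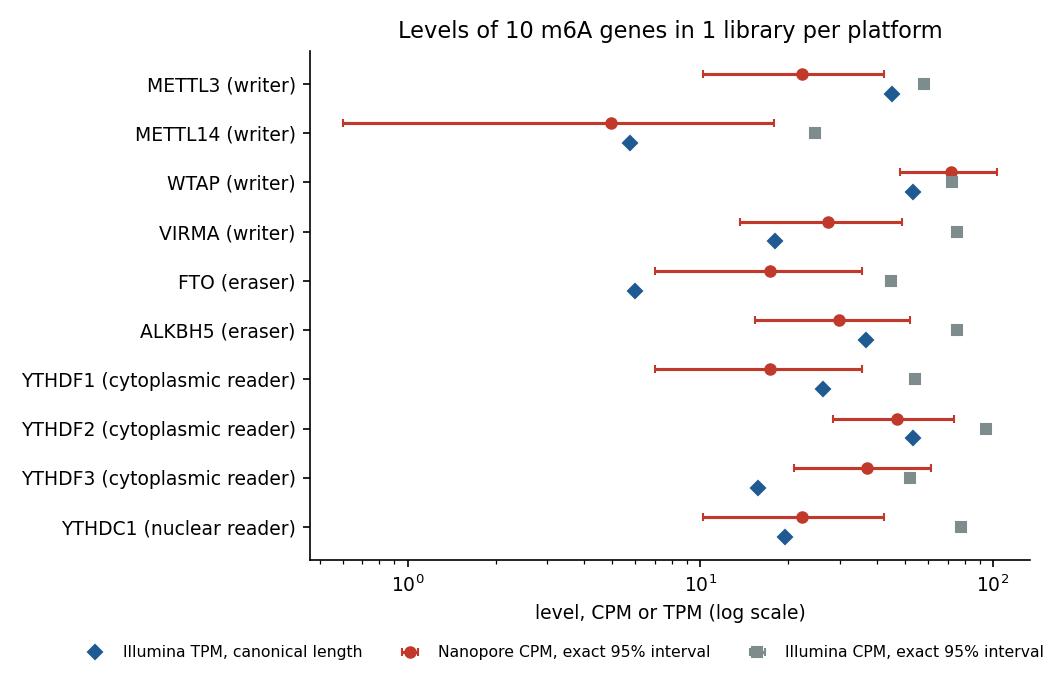
Level of each gene (rows, with its role) on a log axis: Nanopore CPM in red and Illumina CPM in grey, both with exact 95% intervals (the grey ones are narrower than the symbol), and Illumina TPM in blue. The blue symbols lie inside the red intervals for 7 of the 10 genes; the exceptions are METTL3, FTO and YTHDF3.

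The YTHDF messages could in principle exchange reads, since the 3 genes are paralogues. Their coding sequences had 69.7 to 72.8% identical bases in pairwise alignments, but no word of 50 bases in the canonical transcript of YTHDF1 or YTHDF3 occurred in any other annotated gene. The longest run shared between the coding sequences of YTHDF1 and YTHDF2 was 20 bases, and between YTHDF3 and either of them 17 bases. The 20-base run is shown because it is the longest exact match between the canonical transcripts of YTHDF1 and YTHDF2. Other transcripts were not compared, and whether reads were exchanged between the 3 genes was not tested. It is in capitals, with 12 flanking bases on each side, from exon 4 of YTHDF1 (minus strand, hg38, chr20:63202726-63202769) and exon 4 of YTHDF2 (plus strand, chr1:28743504-28743547).
YTHDF1: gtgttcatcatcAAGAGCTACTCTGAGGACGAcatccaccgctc
YTHDF2: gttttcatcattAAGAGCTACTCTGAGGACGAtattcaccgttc

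Per library total, 9 of the 10 genes had smaller values by Nanopore, and WTAP differed by less than counting error, its sign turning under other scalings (0.079 with TMM, 0.24 with totals over nuclear protein-coding genes). The log2 ratio of Nanopore CPM plus 1 to Illumina CPM plus 1 had a median of −1.33 over the 10 genes, from −2.10 (METTL14) to −0.0077 (WTAP), beside −0.42 for the 12414 tested genes, those averaging 5 CPM or more over both libraries. At least 2-fold lower by Nanopore were 7 genes: METTL14 (−2.10), YTHDC1 (−1.76), YTHDF1 (−1.59), VIRMA (−1.43), METTL3 (−1.34), FTO (−1.32) and ALKBH5 (−1.31). YTHDF2 stood just short of this, at −0.99, and YTHDF3 was at −0.47. Of all tested genes 30.2% were 2-fold lower by Nanopore, and of the protein-coding ones 33.8%, so the count of 7 in 10 was above the background. None of the 10 was 2-fold higher by Nanopore, against 19.2% of all tested genes and 1059 of the 10498 protein-coding ones.

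Counting error left most of these differences in place. The exact interval of the CPM ratio lay below 1 for 8 of the 10 genes and above 1 for none, beside 31.4% and 21.4% of all tested genes. The lowest ratio was that of METTL14, 0.202 (0.0244 to 0.728), which rests on 2 reads, followed by YTHDC1 at 0.286 (0.131 to 0.543). WTAP, at 0.995 (0.666 to 1.43), and YTHDF3, at 0.717 (0.401 to 1.18), had intervals that include 1. Summed over the 10 genes there were 120 Nanopore counts where the Illumina shares would give 253.6, a ratio of 0.473 (0.392 to 0.566).

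The picture changed when length was taken into account. Illumina libraries are built from fragments, so a longer transcript yields more counts, whereas a direct RNA read starts at the poly(A) tail of a single molecule. Nanopore CPM was therefore set against Illumina TPM, calculated with the length of the Ensembl-canonical transcript. On this scale the 10 genes together had 1.06 times the Illumina level (0.881 to 1.27), with 120 reads where 112.9 would be given. The median log2 ratio of all tested genes was 0.48 on this scale, so a ratio of 1 was below that of the median gene. By role the ratio was 1.03 for the 4 writers (0.770 to 1.36), 1.10 for the 2 erasers (0.662 to 1.72), 1.06 for the 3 cytoplasmic readers (0.764 to 1.44) and 1.15 for YTHDC1 (0.526 to 2.18). Each of these 4 intervals includes 1, and that of YTHDC1, which rests on 9 reads, is the widest. The near equality rests on the length used: with the mean length of the annotated transcripts the sum of the 10 was at 0.781 (0.647 to 0.933) and YTHDC1 at 0.494 (0.226 to 0.938), and with union exonic length the writers were at 1.47 (1.10 to 1.93).

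Single genes still differed per length. The median log2 ratio of the 10 was 0.0076, with 5 below and 5 above 0, beside 0.48 for all 12350 tested genes with an annotated length. None was 2-fold lower, against 11.1% of all genes, and 2 were 2-fold higher, FTO and YTHDF3, against 34.8%. FTO had 2.90 times its Illumina TPM level by Nanopore (1.16 to 5.97) and YTHDF3 2.36 times (1.32 to 3.89). These were also the only intervals above 1, which 35.2% of all tested genes had. METTL3 was the only gene whose interval lay below 1, at 0.492 (0.225 to 0.935; log2 ratio −0.99), beside 11.4% of all tested genes. For METTL14 the ratio was 0.864 (0.105 to 3.12), so the 2 reads seen were close to the 2.32 its canonical-length Illumina TPM would give. With union and mean length the log2 ratio of METTL14 was −0.85 and −1.05, the second of which is 2-fold lower. The value of FTO depends on the transcript assumed: with the mean length of its 22 annotated transcripts, 2296 bases, the log2 ratio turned from 1.39 to −0.41. YTHDF3 fell short of 2-fold with either other length (0.68 with union and 0.44 with mean length), and METTL3 was at −0.25 with union and −1.09 with mean length. The tables do not separate transcripts, so which forms were present was not measured.

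**Figure D2:**
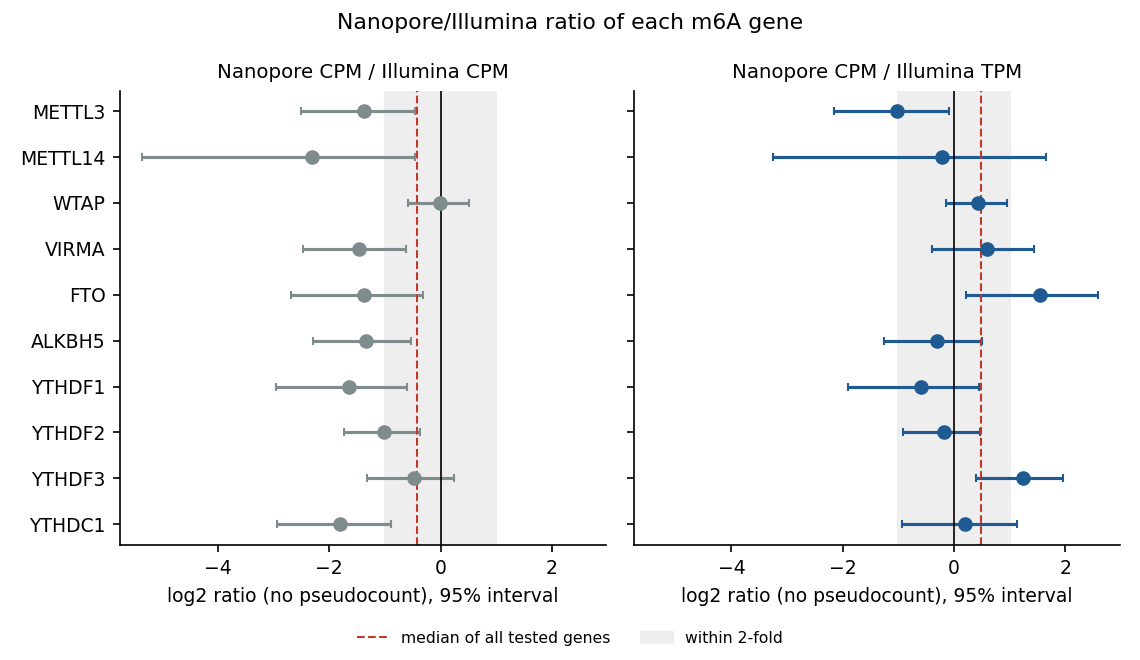
Log2 ratio of Nanopore CPM to Illumina CPM (left) and to Illumina TPM (right) for each gene, with exact conditional binomial 95% intervals and no pseudocount; the dashed line is the median of all tested genes and the grey band is 2-fold. On the left 8 intervals lie wholly below 0, and on the right 1 does (METTL3) and 2 lie wholly above it (FTO and YTHDF3).

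The 10 canonical transcripts had a median length of 4146.5 bases, beside 2882 for all tested genes. They ranged from 1980 bases (METTL3, of which 6.06% are 3′ untranslated) to the 11573 of FTO. Across all tested protein-coding genes the median log2 CPM ratio fell from 0.21 under 1500 bases to −1.02 at 6000 bases and over. Against the median of its own length group, the CPM ratio was lower for 8 of the 10 genes, with WTAP and YTHDF3 the exceptions. METTL3 and WTAP have canonical transcripts of similar length, 1980 and 2105 bases, and log2 CPM ratios of −1.34 and −0.0077. Per length the medians of the protein-coding groups went the other way, from −0.46 under 1500 bases to 1.22 at 6000 bases and over, so the 1.39 of FTO stood close to the median of its group. Per length 7 of the 10 genes lay under their group's median, with WTAP, FTO and YTHDF3 the exceptions. Spearman's rho between length and the log2 ratio over the 10 genes was −0.50 for CPM and 0.62 per length, a description across genes measured in the same 2 libraries. The per-length ratio contains canonical length as a factor, so its rise with that length, here and in the group medians, is partly built in.

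**Figure D3:**
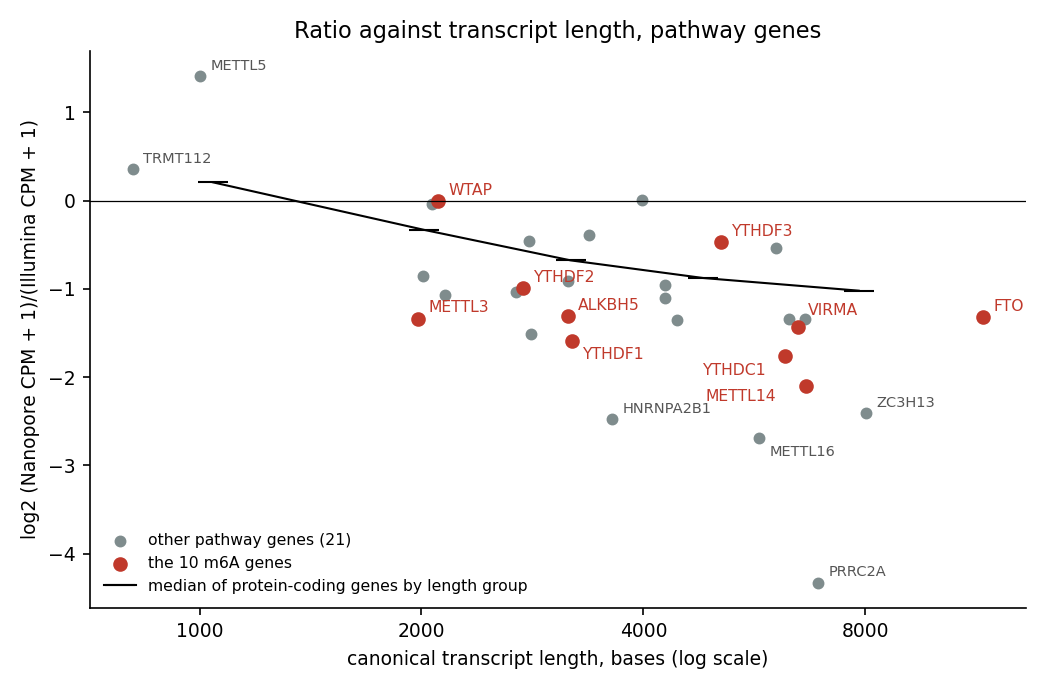
Log2 ratio of Nanopore to Illumina CPM (plus 1) against canonical transcript length (log axis) for the 10 genes (red, named) and 21 other tested genes of the pathway (grey, those at the extremes named); the black line joins the medians of 5 length groups of protein-coding genes. Of the red points, 8 lie under the median of their length group.

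Levels between genes were compared per length only. By Illumina TPM the order was YTHDF2 (53.5), WTAP (53.2), METTL3 (45.3), ALKBH5 (36.8), YTHDF1 (26.2), YTHDC1 (19.4), VIRMA (18.0), YTHDF3 (15.8), FTO (5.99) and METTL14 (5.74). The 2 highest did not differ beyond counting error, at a ratio of 1.01 (0.983 to 1.03), while every other neighbouring pair did. By Nanopore CPM the order was WTAP, YTHDF2, YTHDF3, ALKBH5, VIRMA, then METTL3 and YTHDC1 at the same value, FTO and YTHDF1 at the same value, and METTL14. No neighbouring pair in the Nanopore order differed beyond counting error, although the ends did: WTAP had 14.5 times the reads of METTL14 (3.67 to 125). With canonical length, WTAP and YTHDF2 were thus the top pair and METTL14 the lowest in both libraries. With union exonic length ALKBH5 (56.5 TPM) and YTHDF1 (45.7) stood above WTAP (30.5), and FTO (5.67) below METTL14 (9.75). With mean transcript length METTL3 (48.5) stood above WTAP (46.5). Spearman's rho between Nanopore CPM and Illumina TPM by canonical length was 0.66 over the 10 genes. It was 0.63 with mean length, 0.54 with union length and 0.58 with Illumina CPM.

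Within the writer complex, METTL3 and METTL14 bind each other as a heterodimer, yet their messages were far from equal. There were 0.127 METTL14 transcripts per METTL3 transcript by Illumina TPM (0.122 to 0.131; 0.364 with union exonic length and 0.234 with mean transcript length) and 0.222 by Nanopore (0.0234 to 1.07), an interval that just includes equality. WTAP stood at 1.17 per METTL3 by Illumina (1.15 to 1.20; 0.959 with mean length) and at 3.22 by Nanopore (1.49 to 7.74). VIRMA stood at 0.398 by Illumina (0.388 to 0.408; 0.708 and 0.737 with union and mean length) and at 1.22 by Nanopore (0.460 to 3.34). With canonical length the Illumina value lay inside the Nanopore interval for METTL14 and below it for WTAP and VIRMA; the union and mean values of VIRMA lay inside it. Message ratios are not protein ratios, and no protein was measured.

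In the other roles the libraries placed the same gene first. ALKBH5 was at 6.15 times FTO by Illumina TPM (5.99 to 6.32) and at 1.71 times by Nanopore (0.622 to 5.14), where the interval includes 1. With the mean length of the annotated transcripts the Illumina ratio was 1.67, which is inside that interval. YTHDF2 was at 2.04 times YTHDF1 by Illumina (1.99 to 2.09) and at 2.71 times by Nanopore (1.09 to 7.64). YTHDF3 was at 0.602 of YTHDF1 by Illumina (0.585 to 0.618) and at 2.14 times YTHDF1 by Nanopore (0.822 to 6.21), so their rank differed between the platforms, although the Nanopore interval includes 1. Of the 41 YTHDF reads by Nanopore, YTHDF2 had 46.3% (exact interval 30.7 to 62.6%), YTHDF3 36.6% (22.1 to 53.1%) and YTHDF1 17.1% (7.15 to 32.1%). The Illumina TPM shares were 56.0%, 16.5% and 27.5%, of which that of YTHDF3 fell outside the Nanopore interval.

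**Figure D4:**
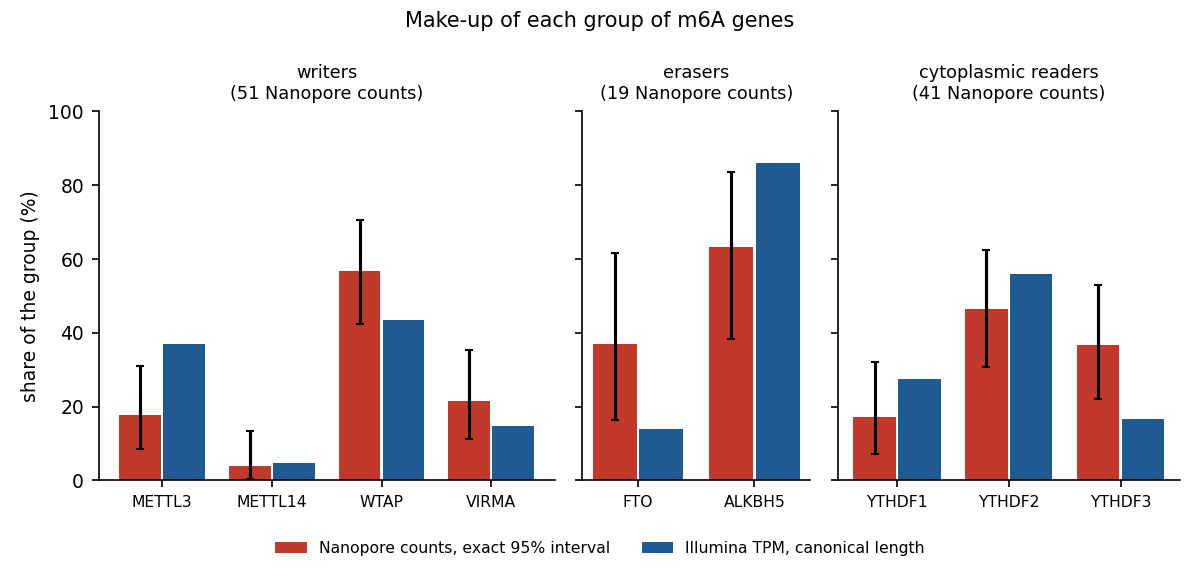
Share (%) of each gene within its role, by Nanopore counts (red, exact 95% interval) and Illumina TPM (blue, canonical length). WTAP leads the writers, ALKBH5 the erasers and YTHDF2 the cytoplasmic readers in both libraries; the blue bar lies outside the red interval for METTL3, FTO, ALKBH5 and YTHDF3.

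Some members share position or sequence with other genes, and how the authors counted reads in such places is not given in the sources used here. A gene body on either strand overlapped 6 of the 10 (60.0%), beside 77.2% of all tested genes, and on the same strand 1 did, FTO (10.0%, beside 39.0%). METTL3 overlaps the last 1043 bases of TOX4, which is read from the other strand and had 19 Nanopore and 11764 Illumina counts. TOX4 sequence holds 13.0% of the 50-base words of the METTL3 transcript. ALKBH5 overlaps the antisense lncRNA ENSG00000266677 (3 and 452 counts) and FTO overlaps the start of RPGRIP1L (5 and 3396 counts), with no exon in common. WTAP lies within the SOD2 gene on the other strand, and YTHDF2 overlaps an antisense lncRNA. Counts of these last 2 neighbours were not analysed here. VIRMA overlaps only an antisense lncRNA with no count in either library.

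Few reads were counted to the processed pseudogenes named here. Such counts do not show whether reads of YTHDF2 or WTAP were lost or placed elsewhere, which was not tested. Words of 50 bases found in other genes made up 19.0% of the YTHDF2 transcript and 10.3% of that of WTAP. YTHDF2P1 shares 352 such words with YTHDF2 and had 0 Nanopore and 17 Illumina counts, and ENSG00000232702 shares 212 with WTAP and had 0 and 115. METTL14, VIRMA, YTHDF1, YTHDF3 and YTHDC1 had under 1% of their words in another gene. YTHDC1 has a copy on 1 alternate contig of hg38, and the other 9 have none. The part of that copy in the low YTHDC1 ratio was not tested.

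Of 22 further genes of the pathway, 21 were detected by Nanopore and tested, with a median log2 ratio of −1.03 per library total. Of these 21, 11 were 2-fold lower by Nanopore and 1 higher, beside 30.2% and 19.2% of all tested genes. Per length (canonical transcripts) their median was 0.12, with 2 genes 2-fold lower and 2 higher, beside 11.1% and 34.8%. Per-length intervals lay below 1 for 6 of the 21 and above 1 for 3, beside 11.4% and 35.2% of all tested genes. IGF2BP1, an m6A reader of embryonic tissue, was not detected by Nanopore and had 2 Illumina counts, while IGF2BP2 and IGF2BP3 had 12 and 6 Nanopore counts and 23.6 and 10.8 TPM by Illumina. The zero of IGF2BP1 allows a level of up to 7.44 CPM by Nanopore at 3 counts, and of 9.15 CPM by the exact interval used for the other genes.

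Of 4 further writer subunits, 2 were 2-fold lower by Nanopore per library total, RBM15B and ZC3H13, beside 30.2% of all tested genes. RBM15 and RBM15B, which bring the complex to its RNA targets, had 5 and 14 Nanopore counts, and log2 CPM ratios of −0.39 and −1.34. ZC3H13, which anchors the complex in the nucleus, had 7 Nanopore counts and 96.3 Illumina CPM, a log2 CPM ratio of −2.41 that was −0.09 per length. CBLL1, a RING-finger subunit also named HAKAI, had 7 Nanopore counts and 6.73 TPM, a log2 ratio of 0.0031 and 1.25 per length. With canonical length, CBLL1 was the only gene of these 4 whose per-length interval left out equality (ratio 2.58, 1.04 to 5.32). With union and mean transcript length CBLL1 was at 8.60 and 12.4 TPM, both inside its Nanopore interval of 6.98 to 35.8 CPM. With mean length RBM15B was at 16.3 TPM, below its Nanopore interval of 19.0 to 58.3 CPM.

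Among 5 other methyltransferase genes, log2 CPM ratios ran from −2.68 to 1.41, and per canonical length from −0.89 to 0.79. Other lengths took METTL5 and METTL16 past 2-fold. With union length METTL5 was at 51.4 TPM, beside 146.3 Nanopore CPM. With union and mean length METTL16 was at 11.3 and 21.8 TPM, beside 4.96 Nanopore CPM. METTL5, which methylates ribosomal RNA, was the only pathway gene 2-fold higher by Nanopore per library total, with 59 Nanopore counts (146.3 CPM) and 54.3 Illumina CPM, a log2 ratio of 1.41 (0.79 per length). Its partner TRMT112, which stabilises it, had 92 Nanopore counts (228 CPM) and 178 Illumina CPM, a log2 ratio of 0.36 that was −0.57 per length. METTL16, which methylates a small nuclear RNA and the MAT2A message, had 2 Nanopore counts and 37.3 Illumina CPM, a ratio of 0.133 (0.0161 to 0.480). ZCCHC4, another ribosomal RNA methyltransferase, had 3 Nanopore counts and PCIF1, which methylates the adenosine next to the cap, had 4, with log2 CPM ratios of −0.46 and −1.03. METTL5 and TRMT112 have the shortest canonical transcripts of the 32 pathway genes, 1001 and 812 bases, and 42.9% of the words of TRMT112 also occur in other genes, most of them in the overlapping ESRRA.

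The further proposed readers include abundant RNA-binding proteins. HNRNPC and HNRNPA2B1, which bind nuclear pre-mRNA, had 239 and 225 Nanopore counts and 545.1 and 1325 TPM by Illumina. HNRNPA2B1 was 2-fold lower per library total (log2 ratio −2.47) and with canonical length (−1.25), and HNRNPC was not on either scale, at −0.91 and 0.12. With union and mean transcript length HNRNPA2B1 was at 665.9 and 1062 TPM, both less than 2-fold above its 558 Nanopore CPM. PRRC2A had the lowest ratio of the pathway, with 4 Nanopore and 41807 Illumina counts, log2 −4.33 and −2.19 per length. It lies on chromosome 6 and has copies on 6 alternate contigs of hg38, whose part in the ratio was not tested. ELAVL1, which stabilises AU-rich messages, was at −0.53 and, with canonical length, at 1.40. With union and mean transcript length ELAVL1 was at 42.0 and 64.4 TPM, both less than 2-fold below its 74.4 Nanopore CPM. RBMX (−0.85), FMR1 (−1.35) and the helicase YTHDC2 (−1.34) were lower per library total and within 2-fold per length.

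The methyl donor supply was well covered. MAT2A, the catalytic subunit of S-adenosylmethionine synthetase, had 44 Nanopore counts (109 CPM) and 172 TPM, MAT2B, its regulatory subunit, had 48 (119 CPM) and 91.9 TPM, and AHCY, which clears the product of methylation, had 68 (169 CPM) and 255.7 TPM. MAT2A and AHCY were 2-fold lower by Nanopore per library total (−1.51 and −1.07), and MAT2B was not (−0.04). With canonical length all 3 were within 2-fold per length, at −0.65, −0.60 and 0.37. MAT2A was at 280.5 TPM with mean length and MAT2B at 38.1 TPM with union length, each more than 2-fold from its Nanopore CPM.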

How the data were processed

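Polyadenylated RNA was measured in 1 Nanopore direct RNA library and 1 Illumina library. The authors deposited whole-number gene counts, not normalized. Per the submitters' processing notes, minimap2 2.11-r797, HISAT2 2.1.0, featureCounts and hg38 were used; options, annotation release, strand setting and treatment of shared reads are not given in the sources used here. Column tags carry suffixes that no label explains, so whether Nanopore reads were corrected with short reads, which would tie the libraries together, is not known.

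Names, positions, lengths and transcript sequences came from GENCODE release 44 (hg38); 528 of 58735 identifiers did not match. CPM used library totals; log2 ratios added 1 CPM; background genes had a mean of at least 5 CPM. TPM treats length as fixed. Intervals are exact: Clopper-Pearson for CPM and shares, conditional binomial for ratios (scipy 1.17.1). Only the ratio intervals were run on simulated data. Those were Poisson counts, the model the intervals assume, so that run cannot show how they cover variation between libraries. With 1 library per platform no p-value is given and edgeR's quasi-likelihood test could not be fitted; edgeR 4.0.16 supplied TMM factors only. Reads are not independent molecules in an amplified library. Alternate contigs were searched with minimap2 2.31 (80% of the transcript, at most 5% divergence). Genes named were all members, the listed pathway genes and expressed neighbours. The members and lists were chosen with earlier results of these data known; the length groups, shared words, contig search and summed ratios by other lengths were added after values were seen.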

Additional observations from a re-analysis of the deposited data

How the results depend on the processing

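Every member's CPM ratio stayed within its counting interval under pseudocounts of 0.1 or 5 CPM, TMM, median-ratio scaling or totals over nuclear protein-coding genes. Before 1 CPM was added, those scalings raised every Nanopore/Illumina ratio by 0.088, 0.13 and 0.25 (log2). With it the ratios rose by less, that of METTL14 from −2.10 to −1.91 with totals over nuclear protein-coding genes. Under these settings 7 genes stayed 2-fold lower (8 with a pseudocount of 0.1 CPM, which took in YTHDF2). Requiring 4-fold left 1, METTL14. Division by length changed the result by its construction: with canonical, union exonic and mean transcript length, 0, 1 and 2 genes were 2-fold lower, 2, 2 and 0 higher, and the median was 0.0076, −0.33 and −0.50. Among the 7, signs turned for VIRMA (0.57 canonical, 0.50 union), FTO (1.39, 1.46) and YTHDC1 (0.19 canonical only); of the others, YTHDF3 (1.19, 0.68 and 0.44) and WTAP (0.43, 1.21 and 0.62) turned with all 3 lengths, and the per-length ratio of FTO turned to −0.41 with mean length. For the summed ratios, lengths tried after values were seen gave 0.781 for all 10 genes and 0.494 for YTHDC1 (mean), 1.47 for the writers and 0.740 for the cytoplasmic readers (union), beyond the counting intervals of 1.06, 1.15, 1.03 and 1.06. Illumina message ratios with union and mean length were 0.364 and 0.234 (METTL14 to METTL3), 1.14 and 0.959 (WTAP to METTL3, the second reversed), 0.708 and 0.737 (VIRMA to METTL3), 9.97 and 1.67 (ALKBH5 to FTO), 1.505 and 2.17 (YTHDF2 to YTHDF1), 0.499 and 0.823 (YTHDF3 to YTHDF1). Overlap on the same strand held for 1 gene, of exons for 5. At least 10 Nanopore counts were present for 5 of the 10 genes, so depth limits single ratios; filters on mean CPM changed no value of the members. No paired analysis was possible because each platform has 1 library.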
